A study of Mus musculus with 18 samples.

Results

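The baseline levels of dorsal spinal cord RNA were compared between mice expressing the nuclear mutant HDAC4 3SA and mice expressing wild-type HDAC4 (HDAC4 wt), all injected with saline in the hindpaw. The sequenced mice, C57BL/6 by the labels and C57BL/6N by the study's methods, were aged 3 months and had been injected with an rAAV on both sides of the spinal cord, 3 weeks or more ahead of the paw injection. The HDAC4 wt saline and HDAC4 3SA saline groups held 3 mice each, 6 of the 18 mice of the series, and the lumbar dorsal spinal cord was taken 24 h after the injection. The other mice had received CFA (complete Freund's adjuvant, which causes a lasting local inflammation) or an rAAV that carries LacZ, the control for the virus. Both HDAC4 constructs carried a Flag tag at the C-terminal end, and HDAC4 3SA differs from HDAC4 wt by mutation of 3 phosphorylation sites. The tissue holds transduced and untransduced cells, so a level is an average over both.

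Each vector has a table with 1 FPKM value (sequenced fragments relative to exon length and to all mapped fragments) for its saline group and 1 for its CFA group, each estimated over 3 mice. A row was taken where both HDAC4 tables gave the same gene at an overlapping place with a usable estimate, where the mean of the saline groups was at least 1 FPKM, and where the name was not that of an immunoglobulin gene. Of 34579 rows, 17638 met the rule, and 17625 of these were above 0 in both groups. Ratios were centred on the median log2 ratio of rows above 5 FPKM, which moved them by less than 0.01 (a centre of -0.0011). No value per mouse and no depth per library were used, so no SD or test could be given, and each difference below is a description of 2 group values. The tables came from separate estimation runs, so the mutation, the run and the choice of mice cannot be told apart. With FPKM values of whole tissue, fewer cells of a type and less RNA per cell cannot be told apart either.

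HDAC4 is a class IIa histone deacetylase. It binds transcription factors of the MEF2 family and represses their target genes while it is in the nucleus. Phosphorylation at conserved serines lets 14-3-3 proteins hold it in the cytoplasm, and a mutant that lacks those sites stays nuclear. The comparison asks what nuclear retention adds to the expressed protein in mice without inflammation.

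Hdac4 itself (chr1:91928777-92180314, GRCm38) had 10.1 FPKM in HDAC4 wt saline mice and 8.86 in HDAC4 3SA saline mice, a centred log2 ratio of -0.19. In CFA mice it had 10.8 FPKM with HDAC4 wt and 8.81 with HDAC4 3SA, and in LacZ mice 7.41 FPKM after saline and 7.72 after CFA. Both HDAC4 groups were thus above the LacZ level, and HDAC4 wt was above HDAC4 3SA after either injection. Whether the row counts transcripts of the vector as well as those of the mouse gene is not given in the sources used here.

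The 2 saline profiles lay close to each other. Among 14000 genes read from 1 row each, 96.5% were within 1.5-fold and 86.2% within 1.2-fold, and the 5th and 95th percentiles of the centred log2 ratio were -0.42 and 0.24. The longer tail on the lower side was also seen in the counts. Past 1.5-fold, 155 genes (1.11%) were higher in HDAC4 3SA and 335 (2.39%) were lower. Past 2-fold, 61 genes (0.436%) were higher and 83 (0.593%) were lower. The distance from 0 was wider at low levels: the median absolute log2 ratio was 0.17 for 1590 genes between 1 and 2 FPKM and 0.069 for 2430 genes between 20 and 50 FPKM. Above 50 FPKM it was 0.086 over 1356 genes, with 10 genes past 2-fold higher and 14 lower. At the edge of the rule, Paqr5 was just inside with 1.04 FPKM in HDAC4 wt and 0.966 in HDAC4 3SA, and Pbdc1 was just outside with 1.05 and 0.953.

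**Figure D1:**
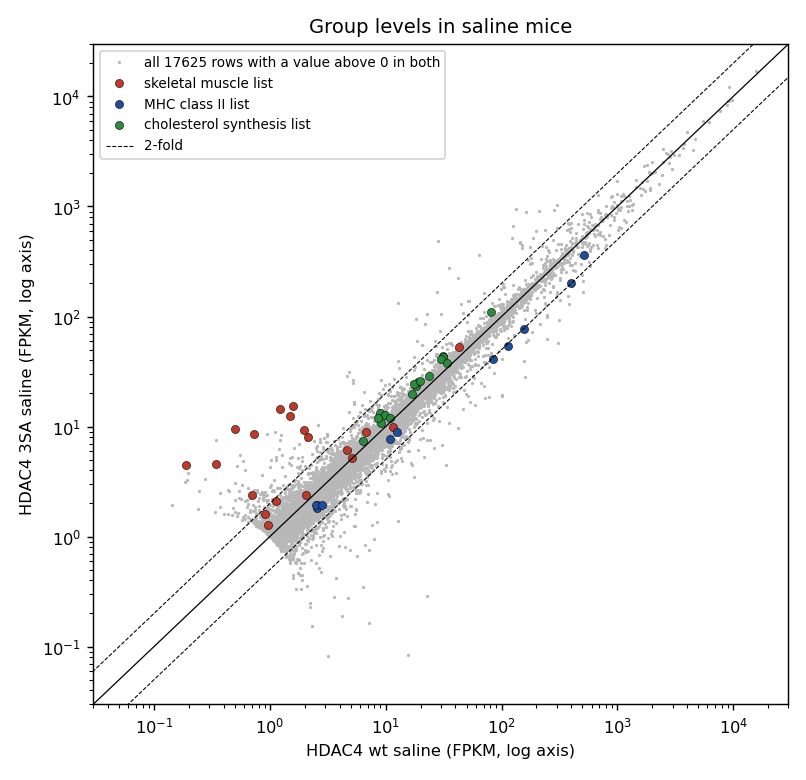
Level of each row in HDAC4 wt saline mice (x axis, FPKM, log axis) and HDAC4 3SA saline mice (y axis, FPKM, log axis), 1 grey point for each of 17625 rows, with 3 gene lists coloured, the solid line at equal levels and dashed lines at 2-fold. MHC class II genes lie below the solid line, cholesterol synthesis genes above it, and 10 skeletal muscle genes lie above the upper dashed line.

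The genes of antigen presentation were lower in HDAC4 3SA saline mice. MHC class II molecules present peptides from engulfed material to CD4 T cells and are carried by microglia, macrophages, dendritic cells and B cells. All 10 class II genes that were read were below 0, with a median centred log2 ratio of -0.54, beside -0.01 for all genes, of which 53.3% were below 0. H2-Ab1 (chr17:34263147-34269509), the main beta chain, had 113 FPKM in HDAC4 wt and 54.4 in HDAC4 3SA, a 2.08-fold lower level. H2-Eb1 had 84.4 and 40.8 FPKM, and H2-Aa, the alpha chain, had 157 and 77.3 FPKM. These 3 genes were past 2-fold. Cd74, the invariant chain that guides class II molecules through the cell and the gene of the list with the second highest level, had 397 FPKM and 204 FPKM, a log2 ratio of -0.96. The highest level was that of Ctss, the protease that cleaves the invariant chain, with 520 FPKM in HDAC4 wt and 365 in HDAC4 3SA (log2 ratio -0.51). Ob and DM subunits were lower by less, from H2-Ob at -0.37 to H2-Oa at -0.55. Ciita, the class II transactivator, was under the 1 FPKM limit, with 1.001 FPKM in HDAC4 wt and 0.453 in HDAC4 3SA.

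The levels of these genes in the control mice lay far below both. In LacZ saline mice, H2-Ab1 had 6.87 FPKM, H2-Eb1 5.33, H2-Aa 7.65 and Cd74 17.8. In LacZ CFA mice the same genes had 15.6, 12.2, 17.4 and 43.5 FPKM. HDAC4 3SA saline mice were therefore between the LacZ and the HDAC4 wt group for each of these 4 genes. The 4 genes were again lower with HDAC4 3SA in CFA mice, with log2 ratios of -0.72 for H2-Ab1, -0.78 for H2-Eb1, -0.78 for H2-Aa and -0.71 for Cd74. Over the class II list the CFA median was -0.28, with 8 of 10 genes below 0. The CFA groups are other mice, but each shares its vector's estimation run with the saline group.

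MHC class I molecules, present on most cells, show peptides made in the proteasome to CD8 T cells. All 15 genes read for class I and its peptide processing were below 0, with a median of -0.59, and 8 were past 1.5-fold. The proteasome subunit Psmb9, the lowest of the list, had 24.2 FPKM in HDAC4 wt and 13.3 in HDAC4 3SA (log2 ratio -0.86). Nlrc5, a regulator of class I genes, had 4.90 FPKM and 2.74 FPKM (-0.84). B2m, the shared light chain and the most abundant gene of the list, had 433 FPKM and 306 FPKM (-0.50), against 50.1 in LacZ saline mice. H2-K1 had 278 FPKM and 185 FPKM, and H2-D1 had 322 and 223. The class I genes are close copies of each other, so the split of reads between H2-K1, H2-D1 and the H2-Q genes is uncertain. In CFA mice all 15 were below 0 again, with a smaller median of -0.21.

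The proximal promoters of the class II genes were read for the Y box, a motif of class II promoters, as background for genes that lay together. RefSeq promoters (GRCm38.p6, 250 bases before to 50 after the start) were found for 8 of the 10 class II genes. Of these genes, 3 (37.5%) held the letters CTGATTGG on either strand, as did 4.1% of all 32851 promoters taken singly. Here and below, promoters of a list or of all genes on their annotated strand were counted by gene, with any matching promoter enough. The letters end in ATTGG, the reverse complement of the CCAAT box, so both motifs overlap here. The windows are shown with the motif in capitals, each on the strand of its gene, since H2-Aa and H2-Eb1 were past 2-fold and H2-Oa was not.
H2-Aa, chr17:34287856-34287885, minus strand: aagagaattttCTGATTGGttctggcgagt
H2-Eb1, chr17:34305794-34305823, plus strand: ctcctttgatgCTGATTGGctcccagcact
H2-Oa, chr17:34092322-34092351, plus strand: agagaactgctCTGATTGGctgcttaccgc
The first base of the windows lies 62, 73 and 57 bases before the start. The motif thus stood at a similar distance in H2-Aa and H2-Eb1 and in H2-Oa, which had a smaller difference. H2-Ab1, with the largest difference of the list, was not among the 3 genes that held the letters. The same letters stood in 7 of 13 class I promoters (53.8%), in 4 of 12 promoters of cholesterol synthesis genes (33.3%), which are described below and were higher, and in 6.4% of the promoters of all genes on their annotated strand.

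Interferon-induced genes were lower in HDAC4 3SA saline mice as a group. Of 40 genes listed, 30 were read and all 30 were below 0, with a median of -0.46. Single differences were small, with 1 gene past 2-fold and 8 past 1.5-fold. Zbp1 (chr2:173206667-173218920), a sensor of Z-form nucleic acid, had 13.5 FPKM in HDAC4 wt and 6.40 in HDAC4 3SA, a 2.11-fold lower level, and 0.265 in LacZ saline mice. The GTPases Iigp1 (23.6 and 13.4 FPKM), Irgm1 (18.6 and 10.8 FPKM) and Gbp2 (38.1 and 22.4 FPKM) followed. Irf1, a transcription factor of the interferon-gamma response, had 17.1 and 11.4 FPKM. Of the genes nearer to 0, chosen after their values were seen, Isg15 was at -0.29, Ifit1 at -0.18 and Mx1 at -0.02. Ifitm3, the most abundant of the list, had 96.5 and 77.2 FPKM. Interferons and their receptors gave 3 genes with a median of -0.09.

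The interferon-induced genes were not lower as a group in CFA mice. Their median was 0.08, with 19 of 30 above 0 and 11 below. Zbp1 had 17.0 FPKM with HDAC4 wt and 15.6 with HDAC4 3SA. Gbp2 (-0.46), Irf1 (-0.48) and Cxcl9 (-0.48) remained negative, and Rsad2 (0.37), Mx1 (0.34) and Isg15 (0.33) were positive. The difference between saline and CFA mice was not tested.

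The interferon-stimulated response element (ISRE), bound by STAT and IRF proteins, was searched as GAAANNGAAA on both strands. It stood in 15 of the 23 interferon-induced genes with a promoter found (65.2%) and in 3.44% of all promoters taken singly. It also stood in 3 of 13 class I promoters (23.1%), 4 of 18 promoters of cytosolic ribosomal protein genes (22.2%), 4 of 21 immediate early promoters (19%), 1 of 8 class II promoters (12.5%) and 3.69% of the promoters of all genes on their annotated strand. Windows are shown for a gene with a larger difference (Gbp2), a middle one (Isg15) and a small one (Ifit1), with the motif in capitals, all on the minus strand of GRCm38.p6.
Gbp2, chr3:142620594-142620623: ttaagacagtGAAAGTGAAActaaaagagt
Isg15, chr4:156200877-156200906: tatgccgtagGAAAAGGAAAccgaaacaga
Ifit1, chr19:34640794-34640823: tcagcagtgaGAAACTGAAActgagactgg
A match of these letters was thus present in promoters of genes at -0.77, -0.29 and -0.18.

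Markers of T and cytotoxic lymphocytes had a median of -0.83, with 15 of 16 genes read below 0 and 12 past 1.5-fold. Most had means under 2 FPKM. With 1 FPKM added the median was -0.51, and at a mean of at least 5 FPKM it was -0.34. Cd3g, a chain of the T cell receptor complex, had 3.20 FPKM in HDAC4 wt, 1.36 in HDAC4 3SA and 0.0987 in LacZ saline mice. Cd3e (1.59 and 0.801 FPKM), Cd3d (1.36 and 0.744 FPKM) and Cd4 (1.86 and 0.948 FPKM) were among the low ones. Cd3e, Cd3d and Cd4 met the limit on the mean only through HDAC4 wt, so the median rests in part on genes let in by their high group. Ccl5, a chemokine of activated T cells and the most abundant gene here after Thy1, had 28.2 FPKM in HDAC4 wt and 15.3 in HDAC4 3SA, with 0.503 in LacZ. Thy1, which neurons also express, was the only one above 0, at 0.19 with 260 and 297 FPKM. The other 20 of the 36 listed genes were not read, among them Cd8a with 0.587 and 0.377 FPKM. In CFA mice the median was -0.47, with 14 of 16 below 0.

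B and plasma cell markers followed the same pattern, with all 14 genes read below 0, a median of -0.57 and 5 past 1.5-fold. Jchain, which joins antibody units in plasma cells, had 262 FPKM in HDAC4 wt, 167 in HDAC4 3SA and 0.205 in LacZ saline mice. Mzb1, a chaperone of antibody secretion, had 23.1 and 15.5 FPKM, and Irf4, a plasma cell transcription factor, had 2.60 and 1.45 FPKM. Cd79a, part of the B cell receptor, had 8.42 and 6.27 FPKM. The median was -0.30 in CFA mice, with 12 of 14 below 0. Ms4a1, a defining B cell marker, was under 1 FPKM in both groups.

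Genes of microglia, complement, Fc receptors and pattern recognition were also lower after saline, but as groups not after CFA. All 8 Fc receptor genes read were below 0 (median -0.50), as were 20 of 21 genes of activated and disease-associated microglia (median -0.44), 12 of 14 complement genes (median -0.46) and 12 of 14 genes of homeostatic microglia (median -0.18). All 21 pattern recognition genes were below 0 (median -0.40), led by the beta-glucan receptor Clec7a with 26.9 and 17.5 FPKM. In CFA mice the same lists had medians of 0.23, 0.27, 0.02, 0.14 and 0.07, in that order. Of the activated microglia genes, 20 of 21 were above 0 in CFA mice. The difference between the injections was not tested.

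The change of sign is shown here for 5 genes chosen after their values were seen. Lyz2, lysozyme of myeloid cells, had 322 FPKM with HDAC4 wt and 213 with HDAC4 3SA after saline (log2 ratio -0.60), and 441 and 547 FPKM after CFA (0.31). Cst7, a cystatin of activated microglia, had 35.7 and 23.4 FPKM after saline, and 45.2 and 65.0 after CFA. Cybb, the NADPH oxidase subunit and the lowest of its list, had 18.2 and 10.5 FPKM after saline, and 23.1 and 24.4 after CFA. Fcer1g, the common Fc receptor chain, had 73.6 and 51.4 FPKM after saline, and 80.0 and 125 after CFA. C1qa, the start of the complement cascade, had 360 and 254 FPKM after saline, and 486 and 500 after CFA. Of the homeostatic markers, P2ry12 had 13.9 and 13.6 FPKM in saline mice and Tmem119 had 17.4 and 15.7. Levels in LacZ saline mice were below those of both HDAC4 groups for all of these genes, for example 20.6 FPKM for Lyz2, 0.348 for Cst7, 37.5 for C1qa and 11.1 for P2ry12.

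Chemokine, cytokine and adhesion genes lay with the immune lists. Of 25 chemokine and receptor genes, 23 were below 0 (median -0.33, in CFA mice 0.02). Ccl8 (chr11:82115188-82116801), a chemokine for monocytes and lymphocytes, had 10.02 FPKM in HDAC4 wt and 4.45 in HDAC4 3SA, and was 2.25-fold lower. In CFA mice it had 13.2 and 6.02 FPKM, and it had 0.304 FPKM in LacZ saline mice. Of 25 cytokine and receptor genes, 24 were below 0 (median -0.27, in CFA mice 0.01), with Il2rb lowest at 1.55 and 0.793 FPKM and Il16 highest at 3.01 and 3.76. Border macrophage and monocyte genes had a median of -0.32 (11 of 12 below 0) and of -0.25 in CFA mice (7 of 12 below 0), with Ly6c2, a marker of blood monocytes, at 48.2 and 28.0 FPKM. Endothelial activation and leukocyte adhesion genes had a median of -0.18 over 9 genes (in CFA mice -0.0007). Reactive astrocyte genes had a median of -0.28, with 17 of 19 below 0, and of 0.005 in CFA mice, with 10 of 19 above 0. Among the latter list, Gfap was level at 807 and 805 FPKM after saline, Serpina3n had 111 and 82.7, and Lcn2 was the highest at 3.405 and 5.12. Lists share members, so they are not separate observations: Gbp2, Psmb8, Serping1 and Lcn2 are also in the interferon-induced, class I, complement and neutrophil lists.

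Neutrophil and granulocyte genes went the other way. Of 11 genes read, 10 were above 0, with a median of 0.52, and 3 were past 1.5-fold. S100a8 and S100a9, the calprotectin subunits, had 12.6 and 20.6 FPKM and 19.2 and 27.0 FPKM in HDAC4 wt and HDAC4 3SA. Ngp had 3.93 and 5.63 FPKM, and Csf3r, the one gene below 0, had 7.88 and 6.59. The summed level of the list was 57.3 FPKM in HDAC4 wt saline, 79.1 in HDAC4 3SA saline and 18.7 in LacZ saline mice. In LacZ CFA mice it was 136 FPKM, above all other groups. Mpo and Elane were under 1 FPKM in every group with a value.

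**Figure D2:**
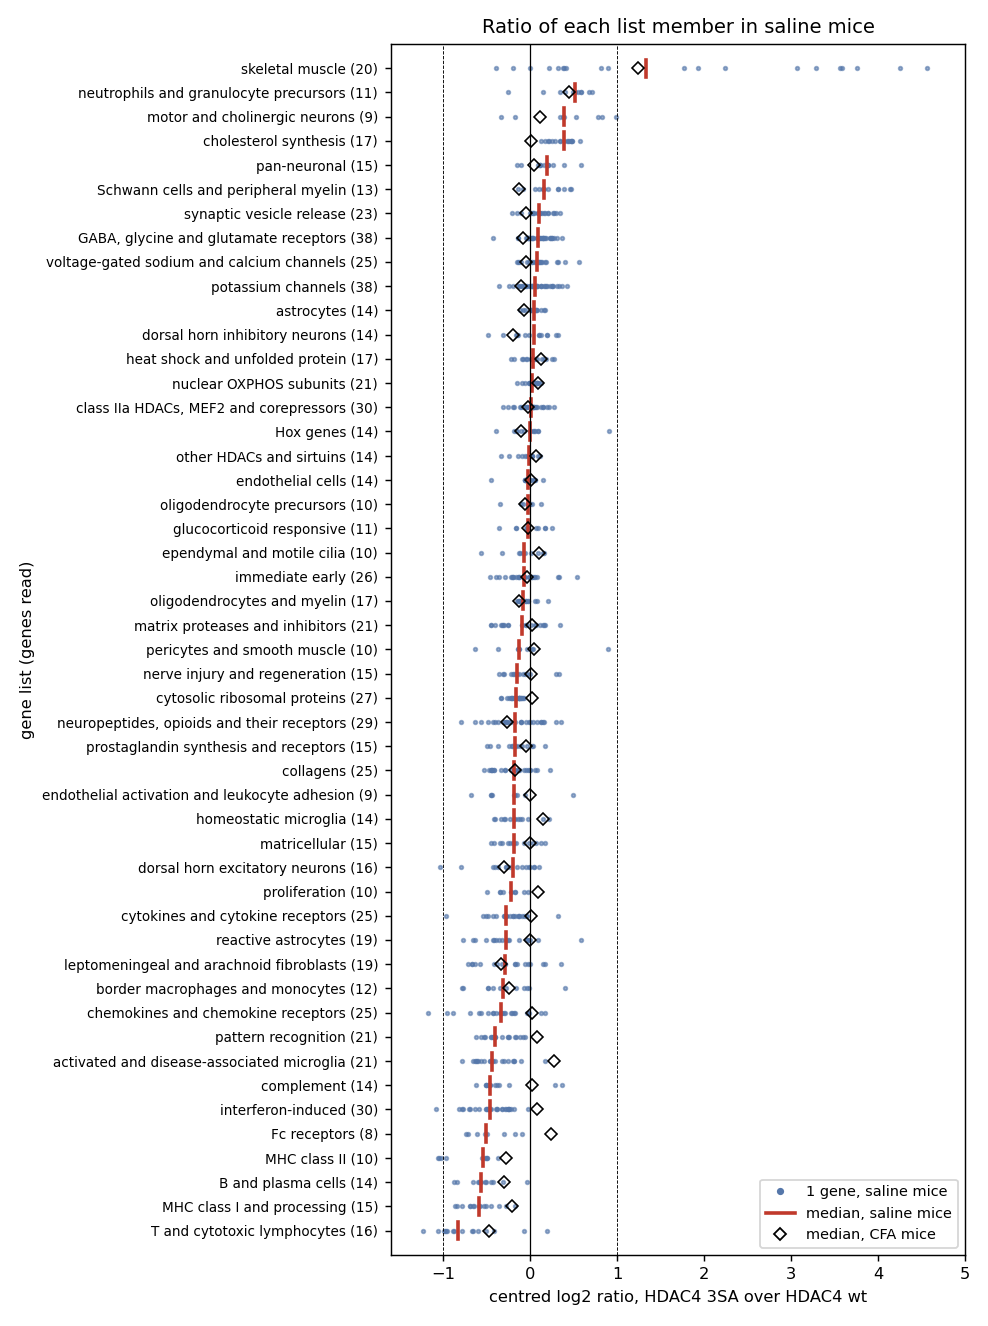
Centred log2 ratio of HDAC4 3SA over HDAC4 wt (x axis) for each gene of 49 lists with at least 8 genes read (y axis, number read in brackets), with points for genes and red bars for medians in saline mice, and open diamonds for medians in CFA mice. Immune lists other than neutrophils lie left of 0 in saline mice, while the diamonds of the microglia, complement, Fc receptor, pattern recognition and interferon-induced lists lie right of 0, and the skeletal muscle list spreads up to 4.56.

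Skeletal muscle genes had the highest median ratio of the lists. Contractile proteins of fast muscle are made mainly in muscle fibres, and the list was included as a marker of other tissue in the samples. Of 20 genes read, 10 were past 2-fold higher and none past 2-fold lower, with a median of 1.33. Ckm (chr7:19411029-19421682), muscle creatine kinase, had 1.21 FPKM in HDAC4 wt and 14.5 in HDAC4 3SA, a log2 ratio of 3.58. Tnnt3, fast troponin T, had 1.59 and 15.5 FPKM, and Acta1, skeletal actin, had 1.495 and 12.5. Tnnc2 (0.496 and 9.46 FPKM), Myl1 (0.734 and 8.63 FPKM), Tnni2 (1.95 and 9.21 FPKM) and Mylpf (2.13 and 8.11 FPKM) were of similar size. Atp2a1, the calcium pump of fast fibres, had 0.341 and 4.60 FPKM, Actn3 0.697 and 2.38, and Myh4, a fast myosin heavy chain, 0.190 and 4.48. Tnnc2, Myl1, Atp2a1, Actn3 and Myh4 were under 1 FPKM in HDAC4 wt and met the limit on the mean only through HDAC4 3SA. The count past 2-fold and the median thus rest in part on genes that the limit let in through their high group.

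Of the 20 genes, 18 were above 0 and 12 past 1.5-fold higher. Among those not past 2-fold, Pvalb, which spinal interneurons express, had 42.8 and 53.3 FPKM, Myh7 had 5.15 in both groups, and Tnni1 had 11.5 and 9.97. Myom2 was listed at 0 in HDAC4 wt and at 4.66 FPKM in HDAC4 3SA. In LacZ mice Ckm and Acta1 lay between the HDAC4 groups: Ckm had 4.78 FPKM after saline and 10.3 after CFA, and Acta1 had 3.94 and 8.94. The list median was 1.24 in CFA mice, with 16 of 20 genes above 0, and Ckm was at 0.0688 FPKM with HDAC4 wt and 15.1 with HDAC4 3SA. The summed level of the 20 genes was 89.2 FPKM in HDAC4 wt saline, 182 in HDAC4 3SA saline, 80.4 in HDAC4 wt CFA, 167 in HDAC4 3SA CFA, 112 in LacZ saline and 143 in LacZ CFA mice. The sum was higher with HDAC4 3SA than with HDAC4 wt after either injection, and it also differed between the LacZ groups. The part of these genes in the other results was not tested.

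Globin was higher as well. Hbb-bs, adult beta globin, had 181 FPKM in HDAC4 wt and 339 in HDAC4 3SA, with a log2 ratio of 0.91 in saline and 0.96 in CFA mice, and Alas2 had 5.57 and 8.18 FPKM. The list gave 4 genes with a median of 0.33. For choroid plexus, 3 genes were read: Ttr, transthyretin, had 3.16 FPKM in HDAC4 wt saline mice and at most 0.151 in each of the other 5 groups. Of 11 primary sensory neuron markers, 2 were read, with a summed level of 8.51 FPKM in HDAC4 wt and 8.60 in HDAC4 3SA saline mice.

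**Figure D3:**
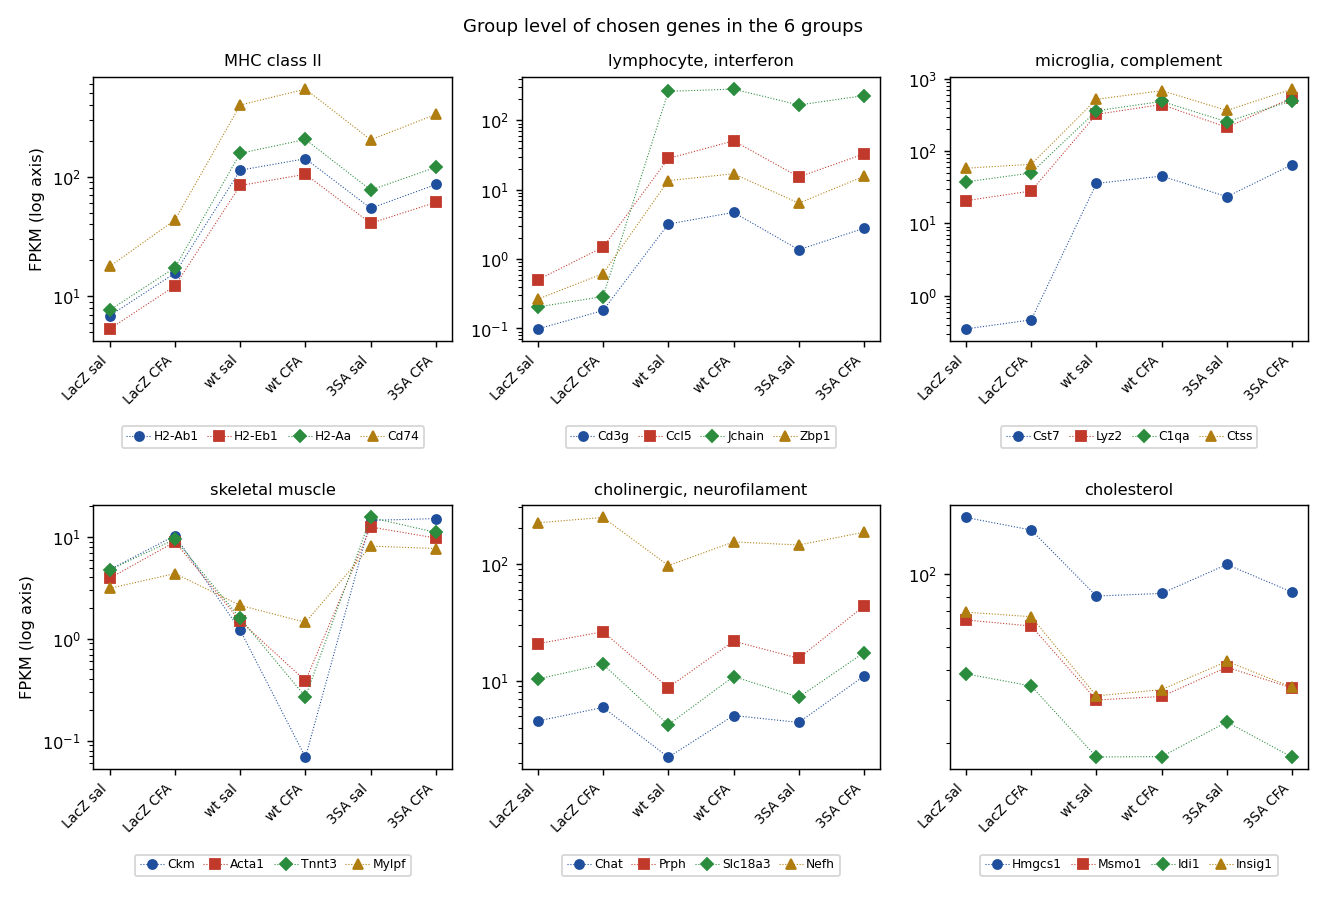
FPKM (y axis, log axis) of 24 chosen genes in the 6 groups (x axis, sal for saline), 1 point per gene and group and no replicate values, with dotted lines that only join the points of a gene. Class II genes are lower in HDAC4 3SA than HDAC4 wt after saline and CFA, microglial and complement genes are lower after saline and not lower after CFA, and muscle genes are lowest in the HDAC4 wt groups.

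Pan-neuronal genes had a median of 0.19 in saline mice, with 13 of 15 above 0 and none past 1.5-fold. In CFA mice the median was 0.05, with 8 of 15 above 0. The neurofilament Nefh had 96.0 FPKM in HDAC4 wt and 144 in HDAC4 3SA (log2 ratio 0.58), Nefl 235 and 308 (0.39), and Rbfox3, which codes for the nuclear marker NeuN, 68.0 and 73.7 (0.12). In LacZ saline mice Nefh had 222 FPKM and Nefl 494, above both. Synaptic vesicle release genes (median 0.11), transmitter receptors (0.10), voltage-gated sodium and calcium channels (0.08) and potassium channels (0.06) had no gene past 1.5-fold among 124 list entries read. In CFA mice their medians were -0.05, -0.08, -0.04 and -0.10.

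Motor and cholinergic neuron markers were higher. Chat, the enzyme that makes acetylcholine, had 2.25 FPKM in HDAC4 wt and 4.45 in HDAC4 3SA, just under 2-fold. Slc18a3, the vesicular acetylcholine transporter, had 4.25 and 7.30, and Prph, peripherin, 8.81 and 15.6. The tables give Chat and Slc18a3 the same place (chr14:32407356-32466355), so they are not separate observations. After CFA, too, both were higher, with Chat at 5.09 and 11.05 FPKM and Prph at 21.9 and 43.5. In LacZ saline mice Chat had 4.57 FPKM and Prph 20.8. Over 9 genes the list had a median of 0.39, with Anxa4 lowest at 14.7 and 11.7 FPKM, and a median of 0.11 in CFA mice, with 3 of 9 below 0. Motor neurons lie in the ventral horn and the tissue was dorsal, so the list also reads how much ventral tissue a sample held, which was not tested.

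Dorsal horn peptides were slightly lower. Excitatory dorsal horn markers had a median of -0.19, with 12 of 16 below 0, 2 past 1.5-fold lower and 1 of these past 2-fold, which was read from a row on the opposite strand. Inhibitory ones had a median of 0.04 over 14. Nmu, neuromedin U, had 9.63 FPKM in HDAC4 wt and 5.54 in HDAC4 3SA (-0.80). Tac1, which codes for substance P, had 44.9 and 33.9, Cck 35.9 and 27.9, Nts 22.5 and 16.7, and Sst 104 and 85.5. Among opioid genes, Pdyn had 29.3 and 21.0 FPKM, Penk 154 and 132, and the mu opioid receptor Oprm1 2.18 and 2.41. Over the 29 neuropeptide and receptor genes the median was -0.17, with 20 below 0, and in CFA mice it was -0.27, with 23 below 0.

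Cholesterol synthesis genes were higher in HDAC4 3SA saline mice. The pathway is switched on by SREBP2 when sterols are low, and its genes usually move together. All 17 genes read were above 0, with a median of 0.38 and none past 1.5-fold. Hmgcs1, which makes the precursor of mevalonate and is the most abundant of the list, had 80.9 FPKM in HDAC4 wt and 109 in HDAC4 3SA. Idi1 had 17.5 and 24.4, Insig1, a sterol sensor, 31.3 and 43.5, and Mvk, the lowest ratio of the list, 10.8 and 11.9. LacZ saline mice had higher levels than both, with 171 FPKM for Hmgcs1 and 38.6 for Idi1. After CFA the 17 genes had a median of 0.01, with 10 above 0, and Hmgcs1 had 83.0 FPKM with HDAC4 wt and 83.9 with HDAC4 3SA. The sterol regulatory element, searched as TCACCCCAC on both strands, stood in 1 of the 12 genes of the list with a promoter found (8.33%). It stood in 0.551% of all promoters taken singly and, counted by gene, in 0.667% of all genes on their annotated strand.
Hmgcs1, chr13:119690204-119690232, plus strand: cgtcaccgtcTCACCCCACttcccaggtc
This element, in capitals, is shown since it was the only match found for the list.

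Astrocyte markers had a median of 0.04, with Slc1a2 at 159 and 173 FPKM and Aqp4 at 196 and 181. Oligodendrocyte and myelin genes had a median of -0.08, precursors -0.02, endothelial cells -0.02, pericytes and smooth muscle -0.12 and ependymal genes -0.07. Fibroblasts of the meninges had a median of -0.29, with 15 of 19 genes below 0 and 4 past 1.5-fold lower, and a median of -0.33 in CFA mice, with Aldh1a2 at 11.1 and 6.99 FPKM and Igfbp2 at 55.4 and 35.8 after saline. Collagens (median -0.18, 22 of 25 below 0), matricellular genes (-0.18) and matrix proteases (-0.09) were slightly lower. Schwann cell and peripheral myelin genes were slightly higher, at 0.16, with 11 of 13 above 0 and Pmp22 at 244 and 336 FPKM. All 13 were below 0 in CFA mice, at a median of -0.13, with Pmp22 at -0.13.

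In the list of class IIa HDACs, MEF2 factors, kinases, 14-3-3 proteins and corepressors, 16 of 30 genes were above 0 and 14 below, with a median of 0.01 and a range from Hdac7 (8.60 and 6.95 FPKM, -0.31) to Sik1 (4.05 and 4.90 FPKM, 0.28). Mef2a had 34.1 and 31.6 FPKM, Mef2c 9.06 and 7.99, and Mef2d 27.1 and 27.4. The abundant 14-3-3 gene Ywhag had 337 and 373. Immediate early genes, several of which MEF2 controls in neurons, had a median of -0.07 over 26 genes, with Fos at 12.8 and 9.28, Arc at 16.2 and 14.1 and Egr4 at 0.851 and 1.23 FPKM. For the motif search, genes with any row on the annotated strand past 2-fold were taken, which gave 65 higher and 91 lower genes, more than the counts with 1 row per gene. Promoters were matched for 38 and 52 of them. The MEF2 consensus site was found in 1 of the 38 (2.63%) and 1 of the 52 (1.92%), beside 2.08% of the 10038 genes on their annotated strand with a promoter. It stood in 3 of 16 skeletal muscle promoters (18.8%) and in 3 of 21 immediate early promoters (14.3%). The other HDACs and sirtuins had a median of -0.01, Hox genes 0.00 and glucocorticoid responsive genes -0.03.

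Cytosolic ribosomal protein genes had a median of -0.16, with all 27 below 0 and the lowest, Rps28, at 227 and 179 FPKM. In CFA mice the median was 0.03. Proliferation genes had a median of -0.22 after saline with all 10 below 0, nerve injury and regeneration genes -0.15 with 12 of 15 below 0, and prostaglandin genes -0.17 with 12 of 15 below 0. In CFA mice these lists had medians of 0.10, 0.01 and -0.05, in that order, with 7 of 10 proliferation genes above 0. In saline mice the median was 0.03 for heat shock genes, 0.02 for nuclear subunits of oxidative phosphorylation and -0.02 for Y-linked genes. None of these lists had a gene past 1.5-fold. No mitochondrially encoded gene was among the rows used.

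Genes that the study named for its RNAseq experiment were mostly low in saline mice. Slc22a6, the gene of organic anion transporter 1, had 0.0605 FPKM in HDAC4 wt and 0.0547 in HDAC4 3SA, under the limit. Msln, Slc26a7 and H19 were also under 1 FPKM, with H19 at 0.600 and 0.700. Thbs1, thrombospondin 1, had 2.98 and 2.60 FPKM, Prx, periaxin of myelinating Schwann cells, 53.2 and 69.8, Lrg1 1.72 and 2.42, and Nov 2.80 and 3.16. None of these 4 was past 1.5-fold. In CFA mice Thbs1 had 7.65 FPKM with HDAC4 wt and 2.80 with HDAC4 3SA, a wider gap than at baseline.

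Row by row, ratios past 2-fold were more frequent among rows that do not read a gene in the usual way. Of 17625 rows, 226 (1.28%) were past 2-fold higher and 272 (1.54%) past 2-fold lower. Another 13 rows were listed at 0 in 1 group, 7 in HDAC4 3SA and 6 in HDAC4 wt, and got no ratio. Identifiers in the tables run along the plus and then the minus strand of each chromosome, which gives each row a strand, and 98.3% of 12938 genes with 1 row had the strand of the annotation. Rows on the strand opposite to the gene they name were past 2-fold in 10.1% of 1322 cases, unnamed rows in 12.5% of 1380, and rows shorter than 500 bp in 16.0% of 1617. Among 13562 rows on the annotated strand with at least 500 bp, 40 (0.295%) were higher and 51 (0.376%) lower.

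**Figure D4:**
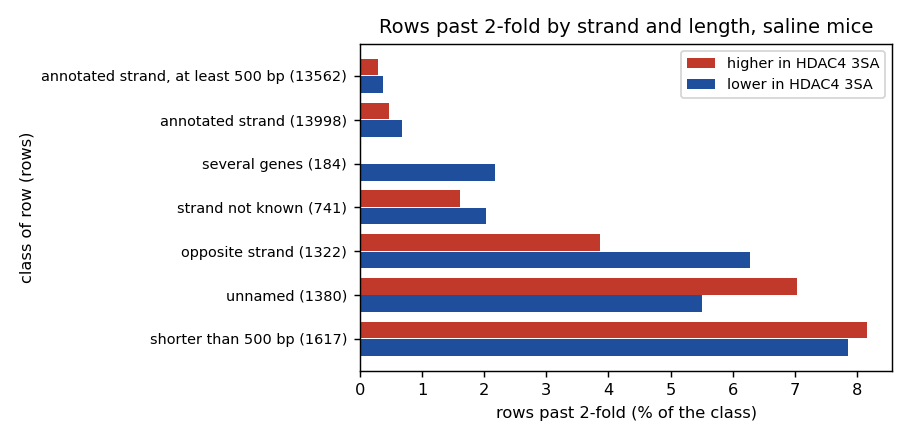
Share of rows past 2-fold (x axis, % of the class) that were higher (red) or lower (blue) in HDAC4 3SA saline mice, by class of row (y axis, number of rows in brackets). Bars are longest for short, unnamed and opposite-strand rows, at 16.0%, 12.5% and 10.1% in both directions together, and shortest for rows of at least 500 bp on the annotated strand.

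Of the 12 highest and the 12 lowest rows of at least 5 FPKM and 500 bp that name 1 gene, predicted genes with Gm names left out, 7 of each lay on the opposite strand. Among the higher ones these were rows at Lhfpl3 (126 and 670 FPKM), Ano8 (5.25 and 24.7), Poldip3 (211 and 911), Sema7a (3.10 and 8.64), Ppif (3.10 and 8.47), Zbtb18 (29.3 and 73.7) and Tank (11.8 and 27.2). Among the lower ones they were rows at BC043934 (42.0 and 9.63), Nr1h2 (10.4 and 2.44), Hoga1 (77.2 and 18.6), Brwd1 (156 and 39.4), Fah (10.4 and 3.24), Gbp3 (86.1 and 30.8) and Pitpnm1 (15.7 and 5.98). For Gbp3, the row on the gene's own strand had 21.3 and 15.3 FPKM, a log2 ratio of -0.48 in place of -1.48. Of the 5 other high rows, all were muscle genes, namely Ckm, Tnnt3, Acta1, Tnni2 and Mylpf.

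The 5 other low rows were of a different kind. Vma21, an assembly factor of the vacuolar proton pump, was read over 1054 bp (chrX:71839318-71840371) with 22.96 FPKM in HDAC4 wt and 0.286 in HDAC4 3SA, and with 23.4 and 0.194 in CFA mice. Pgc, which codes for a pepsinogen, had 32.9 and 4.46 FPKM, and 11.7 and 3.67 in CFA mice. Tldc2 had 12.7 and 1.40 FPKM, but 2.79 and 2.31 in CFA mice, so its high value was limited to the HDAC4 wt saline group. Pydc3 (21.2 and 5.25 FPKM) and Fam179b (8.44 and 2.49) matched no gene of that name in the annotation used, so their strand could not be compared. Both were also lower in CFA mice. Pydc3 is one of a family of interferon-inducible genes of near-identical sequence, so its reads may belong to a relative.

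With the opposite-strand rows and those without a strand comparison set aside, the next lowest were Ccl8, Zbp1, H2-Ab1, H2-Eb1, H2-Aa, Prg2, Cd74, Gdf15 and H2-Q5. Prg2, Gdf15 and the class I gene H2-Q5 are in none of the lists. Prg2, eosinophil major basic protein, had 6.94 FPKM in HDAC4 wt and 3.44 in HDAC4 3SA, and Gdf15, a stress-induced cytokine, 6.88 and 3.60. The next highest after the muscle genes were Pus3 (5.64 and 11.3 FPKM), Hbb-bs, Ntrk3, the receptor for neurotrophin-3 (15.1 and 28.1), Clec12a (104 and 184), Prph, Slc18a3 and Itih3 (27.6 and 45.8). In CFA mice Pus3 had 8.93 and 9.22 FPKM and Ntrk3 31.8 and 33.3, so these were near equal there. Of the rows named without regard to strand, 8 of the 12 highest and all 12 lowest had the same sign in CFA mice. Of the other highest rows, Sema7a, Tank and Zbtb18 had the opposite sign there, and Lhfpl3, listed at 0 in HDAC4 wt CFA mice, got no ratio. With the rows restricted to the annotated strand, a choice made after seeing the data, the counts were 12 of 12 and 11 of 12.

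Across all genes, saline and CFA ratios shared part of their pattern. Of 61 genes past 2-fold higher in saline mice, 44 were above 0 in CFA mice (72.1%, beside 49.1% of all genes) and 25 were past 2-fold. Of 83 past 2-fold lower, 55 were below 0 (66.3%, beside 50.9% of all) and 13 were past 2-fold. In CFA mice on their own, 0.688% of genes were past 2-fold higher and 0.546% lower. Over 14000 genes Pearson's r was 0.40 and Spearman's rho 0.15. Genes are not independent replicates, and both ratios share the run of each vector, with its place and annotation of every row.

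Rows of some other genes were past 2-fold in the same direction after both injections. Any further rows of the same genes are not given here. Gm4779 had 15.7 FPKM with HDAC4 wt and 0.0834 with HDAC4 3SA after saline, 13.97 and 0.345 after CFA, and 9.30 and 8.68 in the LacZ groups. Brip1, a DNA helicase read here over a short stretch, had 0.343 and 7.56 after saline, 0.334 and 5.14 after CFA, and 6.66 and 6.71 in LacZ mice. D10Wsu102e had 1.12 and 8.87 FPKM after saline, 0.935 and 9.55 after CFA, and 9.86 and 9.66 in LacZ mice. Rows of Dab1, an adaptor of reelin signalling, and Magi2, a synaptic scaffold, were above 2 FPKM only in the HDAC4 3SA groups. After saline, Dab1 had 3.79 FPKM with HDAC4 3SA, 0.195 with HDAC4 wt and 0.303 with LacZ, and Magi2 3.24, 0.194 and 0.237. Klk8, a secreted serine protease, had 6.83 and 2.05 FPKM after saline and 7.28 and 3.61 after CFA. H2-M2, a class I-like gene, had 2.88 and 0.912 after saline and 4.99 and 1.34 after CFA. For Gm4779, Brip1, D10Wsu102e, Dab1 and Magi2, 1 vector stands apart from the other 2 in both of its groups, so a difference of the run or of the vector cannot be told apart.

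Set beside the LacZ saline group, the immune lists were high in both HDAC4 groups. Past 2-fold, 5.83% of genes were higher and 0.967% lower with HDAC4 wt than with LacZ, and 4.44% higher and 0.582% lower with HDAC4 3SA. The median log2 ratio over LacZ was 3.74 with HDAC4 wt and 2.95 with HDAC4 3SA for class II genes, 3.35 and 3.01 for interferon-induced genes, 3.01 and 2.79 for activated microglia, and 3.54 and 2.94 for T cells. For cholesterol synthesis it was -1.04 and -0.61, and for motor and cholinergic markers -1.04 and -0.43. Both comparisons share the LacZ mice, so their likeness is not a separate result. The difference between the HDAC4 groups was small beside the distance of either from LacZ in each of these lists except motor and cholinergic markers and cholesterol synthesis.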

How the data were processed

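Libraries were strand-specific and poly-A selected, sequenced as single-end reads of 50 bp. The authors used Bowtie 2.2.9 and TopHat 2.0.14 for alignment (GRCm38, Ensembl annotation), then Cufflinks and Cuffdiff 2.0.0 for levels. They deposited 1 table per vector with FPKM values, 1 per group over 3 mice; values per mouse, counts and depth were not used here, so the precision of a value is unknown. The deposited columns with fold changes, statistics, p-values and q-values of CFA against saline were not used. Replicates within a group were separate mice.

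Rows of the HDAC4 3SA and HDAC4 wt tables were joined by identifier. No constant was added before the log2 ratio (pandas 2.3.3, numpy 2.4.6), and the calculation was tested on simulated data. Each gene was read from 1 row, on the strand given by GENCODE M21 where possible, then the longest. Strand and row choice were added after the data were seen. A gene was counted at 2-fold. The genes compared and the 55 lists were chosen with earlier results of these data known. Named genes were Hdac4, the 12 highest and 12 lowest single-gene rows of at least 5 FPKM and 500 bp (without Gm, Rik, Mir, Snor and ribosomal pseudogene names), list members past 2-fold or at the ends or top of a list, and genes the study names. Others, such as the genes that differed after both injections, were chosen after their values were seen. Promoters are from RefSeq. Coordinates are 1-based on GRCm38. Single results of some genes are not reported here.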

Additional observations from a re-analysis of the deposited data

How the results depend on the processing

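No paired analysis was possible because the tables hold 1 value per group over its 3 mice, and for the same reason no mouse could be left out. The numbers of rows past 2-fold depended on the filters. Against 226 higher and 272 lower, they were 136 and 148 with 1 FPKM added, 84 and 95 at a mean of at least 5 FPKM, 1288 and 1540 with no minimum, 94 and 145 for loci of at least 500 bp, and, chosen after seeing the data, 40 and 51 for such loci on the annotated strand. Rows that name 1 gene gave 129 higher. At 1.5-fold the counts were 547 and 749, and at 3-fold 97 and 90. The other centrings, 0.1 FPKM added, status OK in both and immunoglobulin genes kept left both counts within 1.5 times. With 1 FPKM added, the list medians were -0.51 for T cells, -0.43 for B and plasma cells, 0.41 for neutrophils and 0.77 for skeletal muscle. At a mean of at least 5 FPKM they were -0.96 for MHC class II, -0.34 for T cells, -0.17 for meningeal fibroblasts and 1.17 for skeletal muscle. With no minimum they were 0.52 for motor and cholinergic neurons, -0.17 for meningeal fibroblasts and 1.70 for skeletal muscle. Without Myh4, its highest gene, the skeletal muscle median of 1.33 was 0.90. The median of the 2 sensory neuron genes turned from -0.12 to 0.54 with the row of the highest mean. Over all 54 lists, 26 of 646 medians moved by 0.1 or more. All 489 values of 50 named genes kept their sign. This adds no support, since the settings mostly reuse the same 2 group values and many of these genes were chosen for extreme ratios. The correlation of saline and CFA ratios was 0.21 over all rows and 0.40 over 1 row per gene. FPKM values without replicates limit every statement to the groups as pooled, and levels near 1 FPKM are the least certain.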
